A study of Mus musculus with 28 samples.

Results

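Promoters that carried H3K4me3 alone and no called RNA polymerase II (Pol2) peak made up the largest group of promoters marked by H3K4me3 in mouse hair follicle stem cells. A promoter was counted here when an H3K4me3 peak was annotated within 1 kb of a transcription start, was under 6000 bp wide, and shared no base with an H3K27me3 peak or a Pol2 peak. Of 13505 H3K4me3 promoter peaks, 11293 met the width limit, 9433 of those overlapped no H3K27me3 peak, and 7305 of those overlapped no Pol2 peak either. These 7305 promoters belonged to 6711 genes and were 54.1% of the promoter peaks, out of 21390 H3K4me3 peaks in all. Promoters chosen by the same rule that did overlap a Pol2 peak numbered 2128, or 15.8%, and serve below as the class most like them.

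The old mice were 24 months old and the young mice 6 months old, of a strain given as 132-C67BL/6J, and the cells of both ages were freshly isolated from skin by trypsin and sorted as double positive for CD34 and α6 integrin. ChIP-seq for H3K4me3 and for Pol2 covered 2 old and 2 young samples each, H3K27me3 covered 3 old and 3 young, ATAC-seq 4 old and 4 young, and RNA-seq 3 old and 3 young. The labels give no treatment or transgene and no sex. All peak lists were merged over both ages, and the rule used no fold change. A merged list can hold peaks that passed the caller at a single age, so the choice of promoters is not independent of the difference between old and young.

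H3K4me3 is a histone mark laid down by SET1 and MLL type methyltransferases at the starts of active or poised genes, most of all at promoters rich in CpG dinucleotides. Pol2 is the enzyme that transcribes protein-coding genes, and H3K27me3 is the repressive mark of Polycomb. Many housekeeping genes transcribed at modest rates carry a narrow H3K4me3 peak, while the identity genes of a cell type often carry very wide H3K4me3 domains with much Pol2. A promoter without a called Pol2 peak is therefore not a promoter without Pol2: it is one where the signal did not pass the authors' peak caller.

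The sequences of 8 such promoters are shown because their genes carry results described below: the strong H3K4me3 peak of Epb41l4b, the RNA differences of Polr1c, Rpl14, Kpna2, Rrm2, Sema3d and Slitrk6, and the ATAC-seq differences of Pcdh18 and Slitrk6. Each is the 250 bases upstream of the RefSeq transcription start on assembly GRCm38.p6, written 5′ to 3′ on the strand of the gene, with matches to the motifs named in the next paragraph in capitals. The windows lie at chr4:57143157-57143406 (minus strand), chr17:46248046-46248295 (minus strand), chr9:120571267-120571516 (plus strand), chr11:106999526-106999775 (minus strand), chr3:49757317-49757566 (minus strand), chr5:12382916-12383165 (plus strand), chr12:24708004-24708253 (plus strand) and chr14:110755150-110755399 (minus strand), in the order in which they are printed.
Epb41l4b: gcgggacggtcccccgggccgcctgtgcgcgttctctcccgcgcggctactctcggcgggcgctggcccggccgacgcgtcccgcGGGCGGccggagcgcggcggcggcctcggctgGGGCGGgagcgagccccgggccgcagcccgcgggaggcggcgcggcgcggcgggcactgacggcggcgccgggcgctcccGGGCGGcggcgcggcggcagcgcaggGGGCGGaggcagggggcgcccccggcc
Polr1c: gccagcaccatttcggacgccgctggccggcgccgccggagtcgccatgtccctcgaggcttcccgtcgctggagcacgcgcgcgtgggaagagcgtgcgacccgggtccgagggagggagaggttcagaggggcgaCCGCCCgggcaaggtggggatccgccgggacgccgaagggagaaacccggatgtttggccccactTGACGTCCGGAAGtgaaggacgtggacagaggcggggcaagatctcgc
Rpl14: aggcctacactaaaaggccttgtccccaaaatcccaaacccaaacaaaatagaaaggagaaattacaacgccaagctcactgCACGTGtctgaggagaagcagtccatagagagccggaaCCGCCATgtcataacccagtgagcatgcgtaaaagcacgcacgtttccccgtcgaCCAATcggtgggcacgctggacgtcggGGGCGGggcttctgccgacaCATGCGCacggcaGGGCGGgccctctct
Kpna2: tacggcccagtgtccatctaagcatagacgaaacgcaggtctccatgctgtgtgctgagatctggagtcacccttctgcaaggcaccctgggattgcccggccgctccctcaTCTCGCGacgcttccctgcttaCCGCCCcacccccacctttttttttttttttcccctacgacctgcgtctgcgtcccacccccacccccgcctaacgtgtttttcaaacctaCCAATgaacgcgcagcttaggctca
Pcdh18: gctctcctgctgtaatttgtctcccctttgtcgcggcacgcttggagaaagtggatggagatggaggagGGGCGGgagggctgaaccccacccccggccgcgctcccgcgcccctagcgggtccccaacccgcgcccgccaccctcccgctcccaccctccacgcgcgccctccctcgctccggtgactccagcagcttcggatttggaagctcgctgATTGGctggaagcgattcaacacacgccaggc
Sema3d: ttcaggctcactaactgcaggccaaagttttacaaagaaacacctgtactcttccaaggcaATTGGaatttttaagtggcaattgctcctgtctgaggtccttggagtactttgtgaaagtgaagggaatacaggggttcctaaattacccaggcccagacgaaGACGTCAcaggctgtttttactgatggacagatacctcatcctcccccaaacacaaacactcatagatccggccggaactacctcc
Rrm2: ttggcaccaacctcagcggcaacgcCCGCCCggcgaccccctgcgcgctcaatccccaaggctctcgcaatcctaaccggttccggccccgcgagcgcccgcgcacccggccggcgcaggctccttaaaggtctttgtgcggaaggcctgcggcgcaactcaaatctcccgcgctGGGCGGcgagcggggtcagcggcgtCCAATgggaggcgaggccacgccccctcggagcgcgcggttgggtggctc
Slitrk6: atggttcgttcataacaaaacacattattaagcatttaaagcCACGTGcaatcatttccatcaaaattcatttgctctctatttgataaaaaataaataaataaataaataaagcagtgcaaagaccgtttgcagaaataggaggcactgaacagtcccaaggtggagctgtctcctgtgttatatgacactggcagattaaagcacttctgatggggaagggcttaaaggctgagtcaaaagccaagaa

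These 8 promoters span the range from CpG-rich to CpG-poor. In the 300-base window from 250 bases before to 50 bases after the start, the observed over expected CpG ratio was 1.08 at Epb41l4b with 85.0% G and C, 1.13 at Polr1c, 0.90 at Rpl14 and 1.05 at Kpna2, against 0.44 at Sema3d and 0.36 at Slitrk6 with 38.3% G and C. The upstream bases of Epb41l4b, a FERM-domain protein of the cell cortex, held 4 GC boxes and no other motif. Those of Rpl14, which encodes a ribosomal protein, held matches to 5 of the 9 motifs.

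A RefSeq window whose start lay inside the peak was found for 4631 of the 7305 promoters (63.4%), so as a check of the whole class these sequence values are void, and they describe the matched promoters only. Their median CpG ratio was 0.75 and their median GC content 60.7%, compared with 0.839 and 61.7% at 1542 promoters with a Pol2 peak and 0.384 and 52.7% over all 32851 windows of the RefSeq table. A CpG ratio of at least 0.6 was found in 72.7% of them, in 84.4% of those with Pol2 and in 35.8% of all windows. Matches were searched on both strands for the GC box GGGCGG, the CCAAT box, TATAAA, the ETS motif CCGGAAG, the NRF1 motif GCGCATG, the CRE TGACGTC, the E-box CACGTG, the YY1 motif ATGGCGG and TCTCGCG, the core of a motif bound by ZBTB33. GGGCGG and ATGGCGG share GGCGG, and TGACGTC and CACGTG share ACGT.

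The GC box, a recognition sequence of Sp-family factors, stood in 66.2% of the windows without a Pol2 peak, in 73.3% of those with one and in 35.7% of all windows. The ETS motif stood in 20.8%, against 19.5% with Pol2 and 8.86% of all windows, and TATAAA in 5.85%, against 6.68% with Pol2 and 13.6% of all. The CRE, the sequence bound by CREB-family factors, was found in 4.58% without Pol2, 11.6% with Pol2 and 3.21% of all windows. For the remaining motifs the shares are given without Pol2, with Pol2 and over all windows, in that order. They were 39.0%, 42.2% and 37.4% for CCAAT, 8.31%, 8.3% and 3.91% for NRF1, and 11.1%, 10.8% and 7.15% for the E-box. For YY1 they were 8.27%, 9.27% and 4.05%, and for TCTCGCG 5.2%, 7.78% and 2.56%. No test was run on these shares.

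H3K4me3 was lower in old cells at nearly all of these promoters. At an FDR under 0.05 in the authors' deposited table (DiffBind, adjusted over all H3K4me3 peaks), 6728 of the 7305 promoters were called lower in old (92.1%), 3 were called higher and 574 were not called. Over all 21390 H3K4me3 peaks 79.1% were called lower and 0.281% higher. The median log2 fold change of old over young was −1.41, with quartiles at −1.56 and −1.26, against −1.37 over all H3K4me3 peaks. The decline was therefore shared by the whole table, and relative to the median of all peaks the promoters without Pol2 stood at −0.04. By that measure 4033 of them (55.2%) fell more than the median peak, where 49.5% of all peaks did. The samples are bulk, so that fewer cells with the mark and less of the mark per cell cannot be told apart, and the sources used here do not give the authors' normalization of the libraries.

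Promoters with a Pol2 peak had a median log2 fold change of −1.47 in the authors' deposited table, with 2063 of 2128 called lower (96.9%) and 2 called higher. Relative to the median of all H3K4me3 peaks they stood at −0.10, and 71.1% of them fell more than that median. The promoters without Pol2 were also spread more widely: the 5th to 95th percentile ran from −1.94 to −0.65 without Pol2 and from −1.80 to −1.08 with Pol2. Their median level per kb, the authors' log2 normalized read count over both ages per kb of peak, was 8.26 without Pol2 and 8.60 with Pol2. Their median width was 3223 bp without Pol2 and 4157 bp with Pol2. The difference between the classes was not tested.

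**Figure D1:**
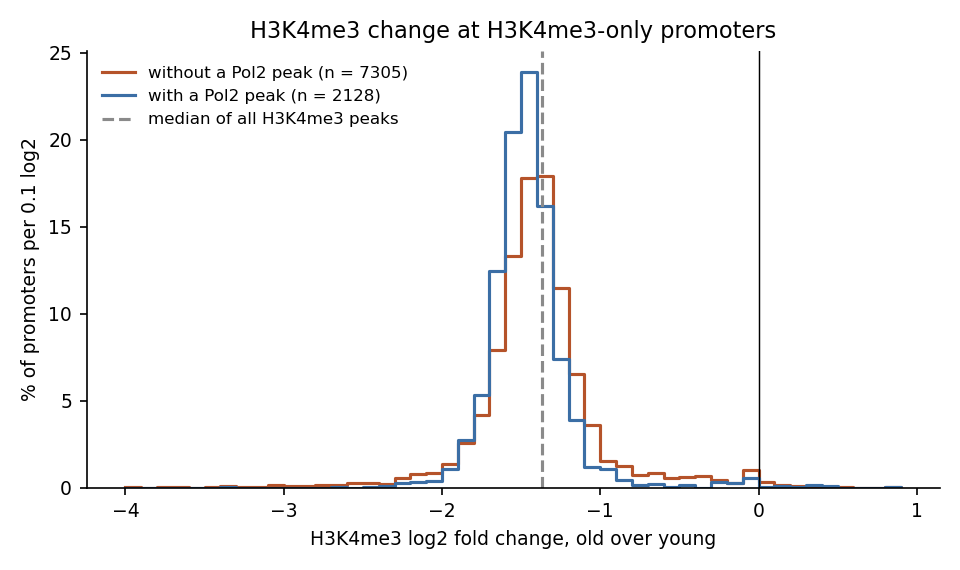
Distribution of the H3K4me3 log2 fold change (x axis, old over young, from the authors' deposited table) at H3K4me3-only promoters without a Pol2 peak (7305) and with one (2128), as % of promoters per 0.1 log2 unit (y axis), between −4 and 1. Nearly all of both distributions lies left of 0, around the dashed line at −1.37, the median of all H3K4me3 peaks, and the one without Pol2 has the longer tails.

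The share of promoters called moved with their signal, while the median change stayed close to the class median. In the first of 4 groups of equal size by mean level, from −0.10 to 8.84 on the log2 scale, 1268 of 1827 promoters were called lower in the authors' deposited table (69.4%), and in the 3 groups above it the share was 99.3%, 99.7% and 100%. The medians of the 4 groups, from low to high level, were −1.38, −1.43, −1.40 and −1.40. Split by width, 71.6% of the narrowest group (179 to 2030 bp) and 99.5% of the widest (4266 to 5999 bp) were called lower. The spread differed in the same way: the 5th to 95th percentile was −2.69 to −0.06 at the lowest levels and −1.66 to −1.13 at the highest. The −0.06 equals the difference deposited where both ages stood at the lowest level, so that end is not a measured spread. At 65 promoters the old level and at 58 the young level was the lowest of the table, which is no measured count, and where both were, the deposited difference of −0.06 is not a measurement. Without these promoters the class median was again −1.41.

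The 574 promoters that were not called were mostly small peaks. Their median width was 664 bp, against 3369 bp for those called lower, 410 of them (71.4%) were under 1 kb wide, and their fold change was below 0 at 508 and above 0 at 66. The 508 include promoters at the lowest level at both ages, whose fold change is not a measurement. Only 5 of the 574 had a mean level above the median of all 7305 promoters. These 5, named after their values were seen, were Adh7, an alcohol and retinol dehydrogenase of epithelia (level 10.21 in old and 10.76 in young, log2 fold change −0.56, FDR 0.0587 in the authors' deposited table), Elf1, an ETS transcription factor (−0.66, FDR 0.051), Gm21816, Trpm3, a cation channel (10.02 in old and 10.23 in young, −0.21, FDR 0.517), and Car12, a carbonic anhydrase (−1.12, FDR 0.0574). Below them in level came Slc14a1, a urea transporter, with 9.50 in old and 9.56 in young (−0.06, FDR 0.865), and Aldh3a1, an aldehyde dehydrogenase, with 9.44 in old and 9.55 in young (−0.12, FDR 0.721), both in the authors' deposited table.

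**Figure D2:**
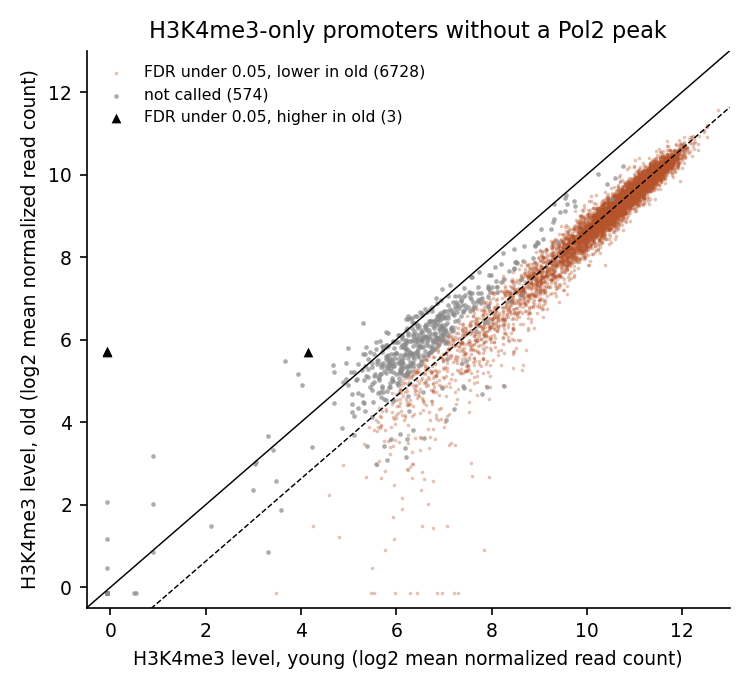
H3K4me3 level in old (y axis) against young cells (x axis), both as log2 of the authors' mean normalized read count, for the 7305 promoters without a Pol2 peak. Each point is a promoter: the 6728 called lower follow the dashed line at the median change of all H3K4me3 peaks (−1.37), most of the 574 not called lie at levels under 8 between it and the solid line of equality, and triangles mark the 3 called higher, 2 of which coincide at the left edge.

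The 5 promoters with the most H3K4me3 were those of Dsc3, Trpm8, Pcdhgc3, Epb41l4b and Mrgprf. Dsc3, the desmosomal cadherin desmocollin 3 of basal keratinocytes, had a level of 11.56 in old and 12.76 in young (−1.20, FDR 0.00033 in the authors' deposited table). Trpm8, the cold-sensing channel, had 11.19 in old and 12.52 in young (−1.33), and per kb it stood highest of the 5, at 10.18. Pcdhgc3, a clustered protocadherin, had 11.15 in old and 12.52 in young (−1.37). Epb41l4b, shown above, had 10.92 in old and 12.53 in young (−1.60, FDR 3.53e-06), and Mrgprf, an orphan receptor, 11.08 in old and 12.46 in young (−1.38, FDR 2.57e-06), all in the authors' deposited table.

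The largest falls were at small peaks that were close to the table's floor in old cells. Such peaks can enter a merged list through the young samples alone, so falls of this size are not independent of how peaks were listed. Among called promoters with a measured level at both ages, the 10 largest falls in the authors' deposited table had levels of 0.47 to 2.70 in old and 5.49 to 7.95 in young, a median width of 535 bp, and only 4 of the 10 spanned an annotated start. They were Gm11670 (−6.96), Gm17391 (−5.58), LOC115488446 (−5.33), Rab26, a GTPase of secretory granules (2.66 in old and 7.95 in young, −5.29, FDR 1.08e-14), Lamb2, the laminin β2 chain (−5.06), Arfip2 (−5.02), Igfals, a carrier of insulin-like growth factors (−4.89, FDR 3e-12), the mRNA export factor Nxf1 (−4.86), the respiratory chain subunit Uqcrc1 (−4.78) and the collagen prolyl hydroxylase P4ha2 (−4.65). At 6 of these genes there was at least 1 other H3K4me3 promoter peak. The other peak of Lamb2, itself without Pol2, was 4357 bp wide and had levels of 10.05 in old and 11.47 in young (−1.42, FDR 1.85e-06 in the authors' deposited table), so the large fall of its 461 bp peak was not that of the gene's main peak.

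The 3 promoters called higher in old were all narrow. Vmn2r-ps19, a pheromone receptor pseudogene, had 5.71 in old and 4.14 in young over 401 bp (1.57, FDR 0.0193 in the authors' deposited table). Sp140, a chromatin reader of immune cells (364 bp, level 5.72 in old), and LOC115486815 (266 bp, 5.69 in old) stood at the table's lowest level in young, −0.07, which is no measured count, so no fold change is given for them. At the other end, the smallest called falls with a measured level at both ages, named after their values were seen, were at A330023F24Rik (−0.61, FDR 0.0411), Tslp, a cytokine of keratinocytes (−0.65, FDR 0.0438), Usp18, a protease that removes ISG15 (10.35 in old and 11.01 in young, −0.66, FDR 0.0294), the helicase Ddx60 (−0.67), Rin2 (−0.68), H2-T10 (−0.69), the collagen Col5a2 (−0.69) and Angptl7 (−0.70), all in the authors' deposited table.

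The rule's limits cut through a continuum. The 3 widest promoters inside the width limit, Chmp7 (5999 bp), Cacna1c (5997 bp) and Nhlrc3 (5996 bp), had fold changes of −1.28, −1.37 and −1.33 in the authors' deposited table. The 3 narrowest beyond it, Pla2g2f (6004 bp), Dus1l (6005 bp) and Mpv17l2 (6008 bp), had −1.38, −1.42 and −1.45. The median distance to the nearest Pol2 peak was 107656 bp, and 74 promoters lay within 1 kb of one, the closest being LOC115487521, LOC115489074 and LOC115488073 at 84, 126 and 134 bp. Farthest away were Nap1l3, Cldn34c1 and Gk on chromosome X, at 10170644, 9463123 and 7979138 bp, with fold changes of −1.51, −1.65 and −1.60 in the authors' deposited table.

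Promoters close to a Pol2 peak had narrower H3K4me3 peaks and were called less frequently, which was not tested. Under 1 kb, 38 of 74 were called lower (51.4%), with a median log2 fold change of −1.04 and a median width of 975 bp in the authors' deposited table. From 1 to 10 kb the values were 76.5%, −1.32 and 2124 bp, from 10 to 100 kb 93.2%, −1.42 and 3319 bp, and from 100 kb on 94.2%, −1.40 and 3244 bp. Peak width moved with distance, and its part in the difference was not tested. A second H3K4me3 promoter peak at the same gene was present for 1483 promoters (20.3%). Of these 77.1% were called lower with a median of −1.36, against 95.9% and −1.41 at the 5822 promoters that were the only one of their gene. At 289 promoters (3.96%) the other peak overlapped Pol2, so that the gene was not without a Pol2 peak, and there the called share was 68.5% and the median −1.22.

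Most of the genes were protein-coding: 6741 of the 6932 promoters with a RefSeq gene match (97.2%), of which 93.6% were called lower in the authors' deposited table. Promoters of 112 long non-coding RNAs were called lower in 83.9% (median −1.32), those of 15 small nucleolar RNAs in 40.0% (−0.74) and those of 12 small nuclear RNAs in 33.3% (−1.01). Chromosome X held 342 of the promoters. Their median log2 fold change was −1.51, the lowest of any chromosome, and that of all H3K4me3 peaks on X was also −1.51. Over the autosomes the medians of the promoters ran from −1.44 on chromosome 11 to −1.36 on chromosome 6, in the authors' deposited table.

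Cilium genes were the list most fully contained in the class. Of 73 H3K4me3 promoter peaks at cilium genes 61 were H3K4me3-only without Pol2 (83.6%, against 54.1% of all promoter peaks) and 5 were H3K4me3-only with Pol2. By the authors' deposited table, 59 of the 61 were called lower in old (96.7%, against 92.1% of the class), with a median of −1.44, against −1.41. They included Wdr34, a dynein chain of intraflagellar transport (8.51 in old and 10.30 in young, −1.79, FDR 4.06e-08), and the transition zone proteins B9d1 (−1.95) and Tctn1 (−1.72). Not called were Dnaaf3, an assembly factor of axonemal dynein (−0.83, FDR 0.0594), and the smaller of the 2 peaks of Ift81 (−0.83).

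Genes that repair DNA and drive the cell cycle were also found in the class. Of 58 promoter peaks at DNA repair genes 38 belonged to the class (65.5%, against 54.1% of all promoter peaks). Of these 35 were called lower (92.1%, the same share as over the class) and the median was −1.43. Examples are the lesion sensor Xpc (9.89 in old and 11.46 in young, −1.57), the ligase Lig1 (−1.57) and the mismatch repair protein Msh3 (−1.70), all in the authors' deposited table. Ercc4, an excision nuclease, had a 721 bp peak that was not called (0.03) beside its main peak of 3182 bp, which was called lower (−1.35), in the authors' deposited table. Among cell cycle genes 32 of 56 promoter peaks belonged to the class (57.1%, near the 54.1% of all promoter peaks). Of these 31 were called lower (96.9%, against 92.1% of the class) and the median was −1.49, against −1.41. The replication licensing factor Cdt1 (9.54 in old and 11.23 in young, −1.68), the E2F factors E2f1 (−1.90) and E2f2 (−1.72 and −1.73 at its 2 peaks), the phosphatase Cdc25a (−1.59) and the ribonucleotide reductase subunit Rrm2 (−1.68) were among them in the authors' deposited table. Cdkn1a, which encodes the cell cycle inhibitor p21, had a 250 bp peak that was not called (−0.85, FDR 0.20).

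Ribosomal protein genes of the mitochondrion and of the cytosol were each found among H3K4me3-only promoters with and without a Pol2 peak. Of 62 promoter peaks of mitochondrial ribosomal proteins 37 belonged to the class (59.7%, against 54.1% of all promoter peaks) and 12 to the class with Pol2. Wide peaks and peaks with H3K27me3 are in neither class, whether or not they overlap Pol2. Of the 37, 35 were called lower (94.6%, against 92.1% of the class), with a median of −1.39 in the authors' deposited table, among them Mrpl39 (−1.68) and Mrpl51 (−1.56). Of 75 peaks caught by the symbol pattern for cytosolic ribosomal proteins only 20 belonged to the class (26.7%) and 40 to the class with Pol2. Those 20 include 5 at S6 kinase genes, 3 at pseudogenes and 1 at Rps19bp1, which the pattern takes in. The remaining 11 peaks, a list trimmed after the values were seen, were all called lower, with a median of −1.42, among them Rpl13a (−1.65), Rpl29 (−1.57) and Rpl14 (−1.39). Aminoacyl-tRNA synthetases, which charge tRNAs, had 20 of 32 promoter peaks in the class, 18 called lower and a median of −1.36, with Aars2 at −1.78 and Eprs, not called, at 0.29 in the authors' deposited table.

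Zinc finger genes named Zfp, most of them encoding DNA-binding factors, had 239 of 333 promoter peaks in the class (71.8%, against 54.1% of all promoter peaks). Of these 220 were called lower, the same share as over the class (92.1%), but the median was −1.30 and 168 of 239 lay above the class median. Zfp653 (−1.93), Zfp821 (−1.76), Zfp341 (−1.69) and Zfp513 (−1.79) had the lowest FDRs in the authors' deposited table. Solute carriers had 130 of 234 peaks in the class, 125 called lower (median −1.40), led by the glycine transporter Slc6a9 (10.15 in old and 11.99 in young, −1.85, FDR 1.37e-08). Tmem genes had 102 of 163, with 92 called lower (−1.42). Predicted genes had 553 of 895 with 416 called lower (75.2%, −1.32). MicroRNA genes had 34 of 66 with 28 called lower (−1.44), including that of miR-203, a microRNA of differentiating skin (Mir203, 9.36 in old and 11.03 in young, −1.68). Small nucleolar RNA genes had 6 of 17 with 2 called lower (−0.50), protocadherins 7 of 13 with 6 called lower (−1.37), and germline and meiosis genes 8 of 10 with 7 called lower (−1.50), among them Prdm9, which sets meiotic recombination sites (−1.68). The histone and olfactory receptor lists had 1 promoter each in the class, Hist1h2al (−1.67) and Olfr750 (−0.76), both called lower in the authors' deposited table. None of these lists held a promoter called higher.

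**Figure D3:**
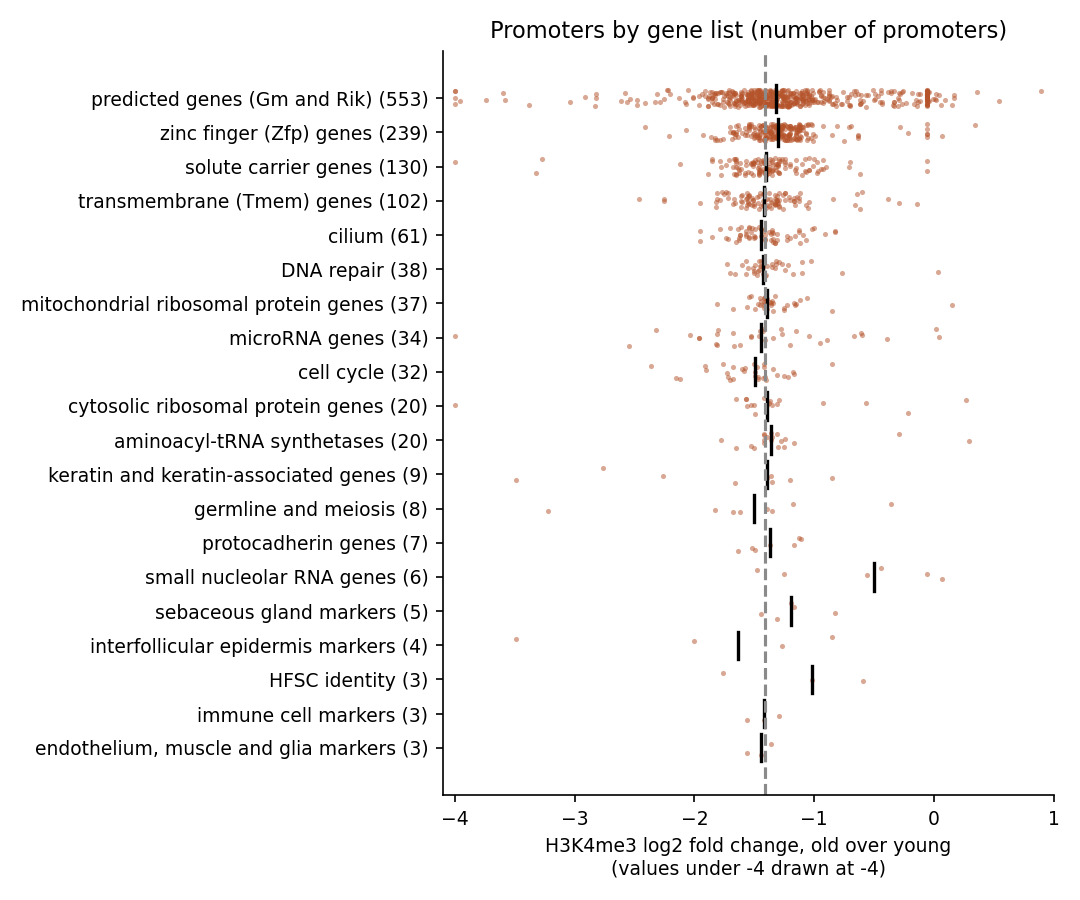
H3K4me3 log2 fold change (x axis, old over young, from the authors' deposited table) of every promoter without a Pol2 peak in each gene list (rows, with the number of promoters, for lists of 3 or more). Points are promoters, with values under −4 drawn at −4, black bars list medians and the dashed line the class median of −1.41. The list medians cluster near the line, and the 6 small nucleolar RNA promoters have the highest median, −0.50.

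Stem cell identity genes mostly stood outside the class. Of 34 promoter peaks at 26 listed hair follicle stem cell genes, 3 were in the class (8.82%, against 54.1% of all promoter peaks). Another 9 were in the class with Pol2, which held 15.8% of all promoter peaks, and 2 overlapped H3K27me3. The other 20 were wide domains. Over all 13505 promoter peaks, 2212 were at or over the width limit, with or without H3K27me3. Most of the 20, among them those of Sox9, Lhx2 and Krt15, also overlapped a Pol2 peak, and those of Lgr5 and Lgr6 did not. Both peaks with H3K27me3 overlapped Pol2 too. The sort markers were among those outside: the Cd34 peak was 11754 bp wide, and both it and the Itga6 peak overlapped Pol2. The 3 inside were Fgf18, a growth factor of the resting bulge (9.11 in old and 10.87 in young, −1.76, FDR 8.09e-09 in the authors' deposited table), a 5081 bp peak of Tcf4 (−1.02, FDR 0.000945) and a 282 bp peak of Tcf3 that was not called (−0.59, FDR 0.33). Tcf3 and Tcf4 here are the E-protein genes, which the list took in by symbol. The stem cell factors also called TCF3 and TCF4 are encoded by Tcf7l1 and Tcf7l2. The counts above therefore include peaks of genes other than those factors. Markers of differentiated epidermis had 4 of 5 promoter peaks in the class (80.0%, against 54.1% of all promoter peaks). They were at Tgm1, a cornified envelope transglutaminase (6.64 in old and 8.63 in young), Sbsn (−1.27), Krtdap and Krt10. The Krtdap peak (−3.49) was 360 bp wide, with a level of 2.48 in old. Krt10, a keratin of suprabasal cells, had 8.56 in old and 9.41 in young (−0.85, FDR 0.0115). All 4 were called lower in the authors' deposited table, where 92.1% of the class and 79.1% of all H3K4me3 peaks were. Only 5 of the 14 listed epidermal markers had an H3K4me3 promoter peak of any kind. The keratin pattern gave 9 of 16 peaks (56.2%, near the 54.1% of all promoter peaks). All 9 were called lower, against 92.1% of the class, with a median of −1.39. Of these, 3 belong to Krtcap2 and Krtdap, which are not keratins.

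For other cell types that such a sort could hold, the peaks in the class were few. All were called lower in the authors' deposited table, where 92.1% of the whole class and 79.1% of all H3K4me3 peaks were: 5 of 9 sebaceous promoter peaks, among them the desaturase Scd1 (−1.44) and the lipid droplet coat Plin2 (−1.17), 2 of 3 at melanocyte genes (Mitf −1.24, Dct −1.13), 3 of 4 at immune genes (Lck −1.42, Cd37 −1.56, Coro1a −1.29), 2 of 6 at fibroblast genes (Col1a1 −3.05, Col1a2 −1.24) and 3 of 7 at genes of endothelium, muscle and glia (Mbp −1.36, Myh11 −1.56, Acta2 −1.44). The Col1a1 peak was 420 bp wide, with a level of 3.65 in old. The Col1a1 peak over the start overlapped H3K27me3, so it was outside the class, and had −2.33. The Acta2 peak was 521 bp wide and lay 618 bp from the start. Many genes of these cell type lists had no H3K4me3 promoter peak at all, among them the defining immune marker Ptprc and the invariant chain Cd74. Such a peak was present at 9 of 14 sebaceous, 3 of 13 melanocyte and 4 of 30 immune genes. It was also present at 5 of 12 fibroblast genes and at 6 of 15 genes of endothelium, muscle and glia. What part cells of these types had in the values was not tested.

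Chromatin accessibility was measured per library, but the authors' ATAC-seq table lists only 7849 peaks with an absolute log2 ratio of at least 0.5 and a −log10 p-value of at least 2 between the same libraries. Of the 7305 promoters, 265 (3.63%) overlapped a listed peak, a share of 3.29% being found for promoters with Pol2. At the 264 listed peaks over these promoters the counts summed to 79298 to 91420 in the 4 old libraries and 121251 to 130825 in the 4 young libraries. The ages did not overlap, but the sums over all listed peaks did not either (1572998 to 1946804 in old and 2456110 to 2773284 in young), and the share of counts at these promoters was 4.49 to 5.04% in old and 4.67 to 5.17% in young.

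With the counts as deposited and equal library sizes, edgeR's quasi-likelihood test (two-sided, Benjamini-Hochberg over all 7849 peaks) called 159 of the 264 peaks lower in old and 9 higher at an FDR under 0.05, where 46.4% of all listed peaks were called lower and 5.43% higher. All 4 old counts lay below all 4 young counts at 147 of the peaks (55.7%, against 35.8% of all listed peaks) and above them at 8 (3.03%, against 4.88%). With TMM scaling on the listed peaks, which moved the fold changes up by 0.59 on the log2 scale, 2 of the 264 were called lower and 18 higher, where 0.701% and 13.9% of all listed peaks were. The calls at most of these peaks therefore rested on the scaling. The unscaled count of 159 lower also fell to between 78 and 137 when any 1 library was left out, the least without young library 3. The median log2 fold change was −0.60 unscaled, against −0.64 for all listed peaks.

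The peak with the lowest p lay over the promoter of Pcdh18, a protocadherin of cell adhesion whose upstream sequence is shown above. It had 255, 310, 273 and 241 counts in old libraries, against 493, 652, 621 and 491 in young (270 ± 29.9 and 564 ± 84.4, SD, n = 4 each), with a log2 fold change of −1.06 (edgeR FDR 0.00498). Every old library was below every young library. Here and at the other named peaks, choosing by p on these same counts favours such separation, so it is no independent support. With TMM it was −0.48 (FDR 0.173). H3K4me3 at this promoter was 8.82 in old and 10.31 in young (−1.49) in the authors' deposited table.

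At A330023F24Rik, a long non-coding RNA gene, accessibility went the other way. The peak had 358, 329, 411 and 411 counts in old libraries, against 170, 182, 166 and 91 in young, a log2 fold change of 1.31 (edgeR FDR 0.00629) without scaling and of 1.90 (FDR 7.69e-05) with TMM. All old libraries were above all young ones. This promoter also had the smallest called fall of H3K4me3, −0.61 in the authors' deposited table.

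The peak at Pank1, a pantothenate kinase of coenzyme A synthesis, had 133, 53, 46 and 69 counts in old libraries, against 273, 213, 306 and 180 in young (log2 fold change −1.69, edgeR FDR 0.00695, and −1.13 with FDR 0.0192 under TMM). The lowest young library was above the highest old one. Together with the BB218582 peak (237, 171, 132 and 141 in old, against 398, 236, 650 and 611 in young, −1.48, edgeR FDR 0.00695) it was lower under both scalings. In the BB218582 peak the ages met, since the highest old count of 237 was just above the lowest young count of 236.

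The other peaks among the 10 with the lowest p were lower in every old than in every young library, and with TMM none was called. Etl4 had 844, 925, 795 and 654 counts in old, against 1318, 1273, 1243 and 1645 in young. Mfsd2a, a lipid transporter, had 1086, 1000, 852 and 651 in old, against 1281, 1700, 1640 and 1624 in young. Plod2, a lysyl hydroxylase that prepares collagen for cross-linking, had 806, 599, 703 and 658 in old, against 1087, 1171, 1129 and 1137 in young. Their log2 fold changes were −0.77, −0.80 and −0.71 with edgeR FDRs of 0.00799, 0.0081 and 0.00916. The peak over the Usp29 promoter, which the authors assign to its neighbour Peg3, an imprinted gene, had 673, 410, 508 and 385 counts in old, against 842, 1264, 848 and 810 in young (−0.93, FDR 0.00919, edgeR). Asxl3, a Polycomb-associated factor, had 411, 383, 455 and 426 in old, against 677, 686, 712 and 794 in young (−0.78, FDR 0.00958, edgeR). A promoter annotated only by an Ensembl identifier beside 9030624G23Rik had 92, 84, 133 and 74 in old, against 218, 209, 323 and 243 in young (−1.37, FDR 0.00806, edgeR).

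**Figure D4:**
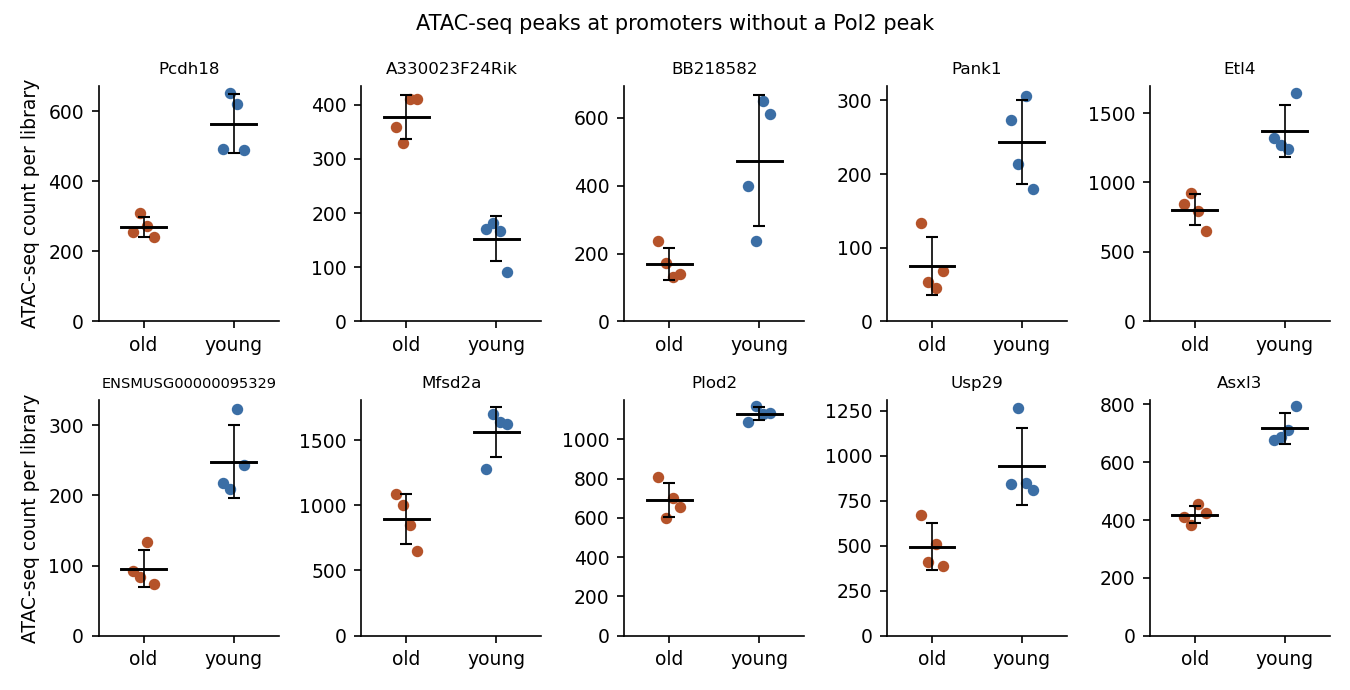
ATAC-seq counts per library (y axis, unscaled, from 0) at the 10 listed peaks over promoters without a Pol2 peak with the lowest edgeR p, in 4 old and 4 young libraries. Points are libraries, horizontal bars means and error bars SD (n = 4 each). Only A330023F24Rik is higher in old, and only at BB218582 do the ages overlap. The peaks were picked by p on these same counts, which favours separation of the ages.

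The 9 peaks called higher in old without scaling dropped to between 4 and 8 when any 1 library was left out, the least without old library 3. Besides A330023F24Rik they lay at Umad1, Ddo, Piwil2, Il18bp, Smarca1, BC034090, Map4 and Herc6, a list made after the values were seen. Piwil2, a germline Argonaute protein that binds piRNAs, had 1079, 939, 1007 and 925 counts in old, against 676, 715, 716 and 660 in young (0.51, edgeR FDR 0.0228). Il18bp, a secreted inhibitor of interleukin 18, had 668, 604, 698 and 563 in old, against 434, 457, 420 and 446 in young (0.53, edgeR FDR 0.0293). Herc6, the ISG15 ligase of the mouse, had 72, 53, 51 and 56 in old, against 30, 9, 46 and 18 in young (1.17, edgeR FDR 0.0419). At all 3 no old library was as low as a young one.

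RNA was compared by the authors with DESeq2, and the authors' deposited table lists 597 genes with an adjusted p up to 0.1. Genes of promoters without Pol2 made up 224 of these. At an adjusted p under 0.05, old cells had more RNA for 76 of them and less for 48, or 124 called genes in all. Of the 124, 112 had no other H3K4me3 promoter peak, 72 of them higher and 40 lower. At the rest, the peak in the class need not be the main peak of the gene. Over the whole list 38.0% were called higher and 18.8% lower. The called genes were 1.85% of the 6711 genes of the class, against 2.16% of the 12158 genes with any H3K4me3 promoter peak. Where a gene had a promoter with Pol2 and none without, 55 of 59 called genes were higher in old (93.2%), and of the called genes of the class 61.3% were. That difference in direction was not tested. Mean normalized counts of the listed genes had a median of 1030 for the class and of 3370 for genes with Pol2 only.

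Among the genes higher in old, Slitrk6, a membrane protein of neurite growth, had the largest change: a log2 fold change of 1.16 (adjusted p 5.6e-07, DESeq2) in the authors' deposited table, with H3K4me3 at 6.36 in old and 7.70 in young (−1.34). It was followed by the tetraspanin Tspan8 (0.99, adjusted p 0.00207, DESeq2), whose 266 bp H3K4me3 peak was not called (−0.13), by Mns1, a protein of cilia and sperm tails (0.915), and by Hpgd, which breaks down prostaglandins (0.80), in the authors' deposited table. The nuclear import receptor Kpna2 (0.78), the EGF receptor ligand Tgfa (0.74), the reductase subunit Rrm2 (0.70), the drug efflux pump Abcg2 (0.67) and Polr1c, a subunit of RNA polymerases I and III (0.59), were also called higher there.

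Several genes of protein synthesis were among the called increases, and 8 are given here, picked after their values were seen. The authors' deposited table lists Eif3e, Eif3h and Eif3m, subunits of an initiation factor, at 0.40, 0.40 and 0.42, the elongation factor Eef1g at 0.40, the nascent chain proteins Naca and Btf3 at 0.37 and 0.40, and Rpl5 and Rpl14 at 0.42 and 0.43. All 8 were called higher in RNA because they were picked among the increases. The H3K4me3 log2 fold changes at their promoters ran from −1.63 at Eif3m to −1.21 at Eif3e. Other genes of protein synthesis in the class were called lower in RNA, among them the tRNA synthetase Tarsl2 (−0.77) and the poly(A)-binding protein Pabpc4 (−0.45).

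Among the genes lower in old, Sema3d, a secreted guidance cue, had the largest change, −1.04 (adjusted p 1.15e-05, DESeq2) in the authors' deposited table, with H3K4me3 at 7.54 in old and 9.14 in young (−1.60). It was followed by Rab3il1, and then by Tmem47, a junction protein (−0.96), the presynaptic scaffold Pclo (−0.94) and Rab36 (−0.90) in the authors' deposited table. Further called decreases there were the immune checkpoint protein Cd276 (−0.77), the transcription factor Tfcp2l1 (−0.76), Piwil2 (−0.74), the dioxin receptor Ahr (−0.54) and the surface protein Prom2 (−0.51).

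The H3K4me3 change looked alike whichever way the RNA moved. In the authors' deposited tables the 76 genes with higher RNA had a median H3K4me3 log2 fold change of −1.41 (quartiles −1.46 and −1.27) and 74 were called lower. The 48 genes with lower RNA had −1.44 (quartiles −1.62 and −1.21) and 43 were called lower. None was called higher. The ranges overlapped widely, from −2.01 to 0.01 and from −2.51 to −0.36, and the difference between them was not tested. The tables come from different samples, and the RNA values hold only genes that passed the authors' selection.

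**Figure D5:**
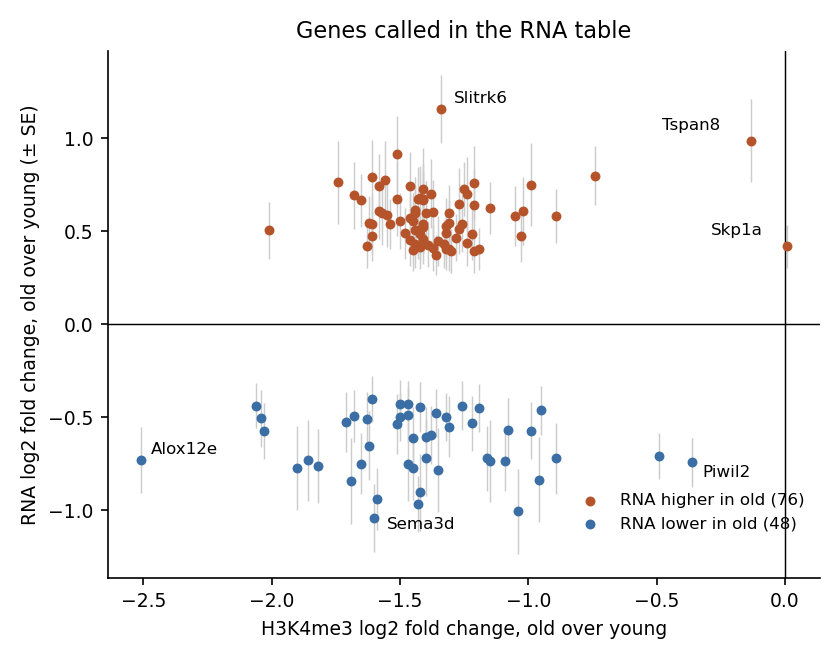
RNA log2 fold change with its deposited SE (y axis, old over young) against the H3K4me3 log2 fold change (x axis, old over young) for the 124 called genes with a promoter without a Pol2 peak, both from the authors' deposited tables. The 76 genes with higher and the 48 with lower RNA span much the same H3K4me3 range, and 1 point, Skp1a at 0.01, lies right of 0. The Skp1a peak is 436 bp wide, and the gene has 1 other H3K4me3 promoter peak.

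Only 6 listed ATAC-seq peaks lay over such a promoter of an RNA-called gene, and without scaling the mean count was lower in old at 5 of them, as it was at 246 of the 264 peaks over these promoters (93.2%). Psat1, an enzyme of serine synthesis, had 187, 285, 202 and 241 ATAC-seq counts in old, against 468, 496, 329 and 490 in young (log2 fold change −0.96, edgeR FDR 0.0125), and an RNA log2 fold change of 0.67 in the authors' deposited table. Slitrk6 had 467, 323, 298 and 311 counts in old, against 549, 358, 634 and 756 in young (−0.72, edgeR FDR 0.0284), beside the largest RNA increase of the class. The ages overlapped at Slitrk6 and not at Psat1.

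The signalling subunit Prkar2b (595, 682, 579 and 587 in old, against 916, 899, 875 and 962 in young) and Ccdc88c (739, 535, 726 and 778 in old, against 938, 1125, 1081 and 858 in young) likewise fell in ATAC-seq, with edgeR FDRs of 0.0171 and 0.0276, and higher in RNA (0.79 and 0.51 in the authors' deposited table). Kpna2 had 125, 147, 145 and 137 counts in old, against 233, 222, 191 and 183 in young, and was not called (−0.58, edgeR FDR 0.0585). Piwil2 showed the reverse, with higher ATAC-seq counts and lower RNA in old. With TMM scaling Piwil2 alone kept its call (FDR 7.69e-05, edgeR), and the other 5 had log2 fold changes from −0.36 to 0.07. Kpna2 (0.01), Prkar2b (0.02) and Ccdc88c (0.07) were then no longer lower in old.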

How the data were processed

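ChIP-seq, ATAC-seq and RNA-seq tables of old and young hair follicle stem cells were analysed as deposited. Per the submitters' processing notes the tools were BWA 0.7.12 and 0.7.15, MACS2 2.2.7.1, DiffBind 2.14.0, STAR 2.5.2b, featureCounts and DESeq2 1.22.2, with builds GRCm38 and GRCm38.p5. The deposited ChIP-seq tables hold 1 log2 normalized read count (signal) per age, a fold of young over old, turned round here, and a p-value with its FDR. A log2 level of −0.13 in old or −0.07 in young is the lowest of the table and no measured count. The deposited RNA table holds mean normalized counts (signal), log2 fold changes with SE, a Wald score and p-values by the authors. The authors' ATAC-seq table holds whole counts per library, a log2 ratio and a −log10 p-value, for selected peaks only, so its p-values here come after a selection on the same libraries.

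Library depths of ChIP-seq and RNA-seq are unknown and sums over listed ATAC-seq peaks are not depths. ChIP-seq values have no per-sample error. The design text calls the samples biological replicates, and p-values measure the spread between them.

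ATAC-seq counts were tested with edgeR 4.0.16 (R 4.3.3), quasi-likelihood, equal library sizes and no filter, with Benjamini-Hochberg adjustment over all 7849 peaks. The script was tested on simulated data. DESeq2 1.42.0, TMM, filters, overlaps, width limits, a replicate block and left-out libraries were alternatives. Python 3.11.15, pandas 2.3.3, numpy 2.4.6 and matplotlib 3.10.9 did the rest. Promoter windows come from RefSeq GRCm38.p6. The class and the gene lists were chosen with earlier results of these data known. Genes were named by rule: the largest falls and rises, the highest levels, the lowest FDRs of each list, genes called in RNA, the 10 ATAC-seq peaks with the lowest p, and the promoters nearest the limits.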

Additional observations from a re-analysis of the deposited data

Results flagged for a closer look

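At the ATAC-seq peak over the Usp29 promoter, 1 young library stood apart from the other young ones. Its count was 1264, and the others had 810, 842 and 848. The gap to the nearest count was 0.916 of the range, above Dixon's 95% critical value of 0.829 for 4 samples. The old libraries had 673, 410, 508 and 385 counts. In all, 24 groups of 4 libraries were checked, and chance flags about 1 in 20.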

How the results depend on the processing

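Of the 7305 promoters 6728 were called lower in H3K4me3. With a width limit of 3000 bp fewer promoters entered, and 2713 of 3265 were called lower (83.1%, against 92.1%). Within 3 kb of a start 7429 of 9528 were (78.0%). Of the 7305, 4033 lay below the median of all peaks, an alternative chosen after seeing the data. The 3 called higher became 5 within 3 kb of a start and 1 without promoters at the lowest level. At an FDR of 0.01 or 0.1, 6479 or 6840 were called lower. The RNA count of 124 became 224 at an adjusted p up to 0.1.

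For ATAC-seq, 159 peaks were called lower and 9 higher. The counts were 2 and 18 with TMM, and 3 and 18 both with library sizes from the listed peaks and with DESeq2's own size factors, against 198 and 13 by DESeq2 with size factors of 1. TMM ended 7 of the 10 named calls, and library sizes from the listed peaks and DESeq2's own size factors ended 6 each, while size factors of 1 ended none. In these 4 settings no named peak changed direction. With the replicate block 45 were called lower and 2 higher. Same-numbered libraries correlated at −0.027, −0.109, 0.035 and −0.186, so the numbers were not taken to pair the libraries, and not every library correlated best with its own number. Leaving out each library in turn gave 78 to 137 lower and 4 to 8 higher. The lower count moved by over 1.5 times without old library 2 (93), 3 (81) or 4 (93), or young library 2 (94), 3 (78) or 4 (104), and the higher count without old library 2 (5) or 3 (4) or young library 3 (5). Fewer samples enter each of these fits. The ChIP-seq and RNA tables have no values per sample, so no library could be left out there.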

Other observations

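Interferon response genes, a list made after values of these data had been seen and given without a test, had 39 of 55 H3K4me3 promoter peaks in the class (70.9%, against 54.1% of all promoter peaks). By the authors' deposited table, 34 of the 39 were called lower in old (87.2%, against 92.1% of the class), with a median log2 fold change of −1.19, and 31 lay above the class median of −1.41. Among the smallest of the called falls were those at Usp18, a protease that removes ISG15 (−0.66), the helicase Ddx60 (−0.67) and Herc6, an ISG15 ligase (−0.72), whose promoter also held an ATAC-seq peak with higher counts in old. Irf9, a subunit of the interferon-activated transcription factor complex, had a larger fall (−1.85). Both peaks of Gbp2, a guanylate-binding protein, and the peak of the chemokine gene Cxcl10 were not called.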
